A study of Mus musculus with 33 samples.

Results

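The mouse beta-globin genes lie inside a long run of olfactory receptor genes on chromosome 7, and the chromatin state of those receptor genes was read in mouse embryonic stem (mES) cells, E11.5 heart and E11.5 forebrain. The members are the protein-coding genes with an olfactory receptor symbol (Olfr followed by a number, or the current Or form) in a fixed window of 4000 kb of chromosome 7 around the beta-globin genes, by the RefSeq annotation of GRCm38.p6. They number 126, of 1103 olfactory receptor genes and 20539 protein-coding genes on chromosomes 1 to 19. By the MOR family numbers in their RefSeq synonyms, 121 are class I receptors, 3 carry a number above 42 (Olfr652, Olfr681 and Olfr605) and 2 carry none (Olfr596 and Olfr687). The synonyms of Olfr605 conflict and also hold a class I number. Those of Olfr652 and Olfr681 read MOR318 and MOR4014 without a hyphen, so family and class cannot be read from them. None of these 3 is thus shown to be outside class I. They run from chr7:102476773-105369317, which is 2.89 Mb, and no member lies near the edges of the window, since the next olfactory receptor cluster begins at 106677534.

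The study profiled H3K9me2, the dimethylation of histone H3 at lysine 9 that marks repressed chromatin, and Lamin B1, a filament protein under the nuclear envelope. It used CUT&RUN, in which an antibody guides a nuclease that releases the DNA beneath it. The mES cells were the C57BL/6 line of the ATCC, plated at first on inactivated embryonic fibroblasts and then moved to LIF + 2i medium, which holds the MEK inhibitor PD0325901 and the GSK3 inhibitor CHIR99021. Hearts were taken whole and forebrains as right lobes from E11.5 embryos of wild-type C57BL/6 mice, pooled by litter and dissociated with papain. H3K9me2 and Lamin B1 had 3 libraries each per source, and the IgG controls 6 for heart, 6 for forebrain and 3 for mES cells, 33 libraries in all. The values used here are 9 deposited lists of domains, 3 per source, that label stretches of the genome as LAD (lamina-associated domain), KOD or open. The term KOD comes from the depositors, and its meaning is not stated in any label. Each list pools the replicates and holds positions without a score. No value below therefore has a replicate error, no difference between sources could be tested, and the depth behind a domain is unknown. A tissue list mixes cell types, so a state held by all cells and one held by some of them cannot be told apart, and expression was not measured.

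Olfactory receptors are G protein-coupled receptors for odorants, and each mature olfactory sensory neuron expresses a single receptor gene from a single allele. The unchosen genes are held in heterochromatin that carries methylated H3K9. Class I receptors form the older, fish-like branch of the family and sit in this single cluster in the mouse. The beta-globin genes encode the beta chains of haemoglobin, expressed in the erythroid lineage, and their locus control region lies upstream of the embryonic gene Hbb-y, on the side of Olfr66. Hearts of this stage contain blood, and the nuclear lamina is a known site of silent gene clusters.

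A total of 109 of the 126 members had an entry in the RefSeq promoter table (GRCm38.p6), from which the 250 bases before the annotated start were read. For 82 of the 109 (75.2%) the annotated model begins at the start codon, so that the window lies upstream of a coding sequence and need not be a promoter. The windows of members whose model begins before the start codon are shown where the heart map changes around beta globin (Olfr69, Olfr67, Olfr64 and Olfr65) and at the outer edge of the run (Olfr544). They are set beside those of Hbb-bt and Hbb-y, the outermost beta-globin genes. Capitals mark matches, on either strand, to any of 5 motifs. These are the core promoter element TATAAA, the sequence AGATAA bound by erythroid zinc finger factors, the homeodomain site TAATTA, the word CCCNNGGG bound by Ebf proteins, and the site CCACCC of Klf factors. Letters are given from 5′ to 3′ on the strand of the gene.
Olfr69: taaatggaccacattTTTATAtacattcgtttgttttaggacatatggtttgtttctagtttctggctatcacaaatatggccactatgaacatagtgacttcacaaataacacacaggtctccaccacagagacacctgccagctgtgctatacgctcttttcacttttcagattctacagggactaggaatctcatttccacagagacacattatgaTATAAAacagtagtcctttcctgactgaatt
Olfr67: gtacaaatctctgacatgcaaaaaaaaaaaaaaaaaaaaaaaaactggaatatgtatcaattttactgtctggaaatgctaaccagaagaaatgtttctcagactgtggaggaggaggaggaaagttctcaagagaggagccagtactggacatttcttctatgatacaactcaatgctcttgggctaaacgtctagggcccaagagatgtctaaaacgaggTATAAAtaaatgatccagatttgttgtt
Hbb-bt: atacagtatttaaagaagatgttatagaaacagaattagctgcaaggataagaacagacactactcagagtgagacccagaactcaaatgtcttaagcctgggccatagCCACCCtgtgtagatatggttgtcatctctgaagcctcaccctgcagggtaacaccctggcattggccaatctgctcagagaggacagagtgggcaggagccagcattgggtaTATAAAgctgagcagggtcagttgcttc
Hbb-y: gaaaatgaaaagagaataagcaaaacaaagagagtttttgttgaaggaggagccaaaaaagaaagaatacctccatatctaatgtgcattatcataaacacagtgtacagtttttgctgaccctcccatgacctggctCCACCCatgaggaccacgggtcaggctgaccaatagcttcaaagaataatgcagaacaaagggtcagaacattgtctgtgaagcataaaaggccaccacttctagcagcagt
Olfr64: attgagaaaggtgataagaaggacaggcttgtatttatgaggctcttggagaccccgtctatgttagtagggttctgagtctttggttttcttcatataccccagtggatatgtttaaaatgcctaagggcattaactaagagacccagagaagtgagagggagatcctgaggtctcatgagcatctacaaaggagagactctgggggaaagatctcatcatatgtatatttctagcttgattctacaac
Olfr65: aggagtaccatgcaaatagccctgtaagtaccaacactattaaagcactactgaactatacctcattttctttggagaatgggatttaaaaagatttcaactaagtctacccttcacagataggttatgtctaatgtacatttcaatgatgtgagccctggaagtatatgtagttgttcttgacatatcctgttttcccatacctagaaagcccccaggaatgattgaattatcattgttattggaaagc
Olfr544: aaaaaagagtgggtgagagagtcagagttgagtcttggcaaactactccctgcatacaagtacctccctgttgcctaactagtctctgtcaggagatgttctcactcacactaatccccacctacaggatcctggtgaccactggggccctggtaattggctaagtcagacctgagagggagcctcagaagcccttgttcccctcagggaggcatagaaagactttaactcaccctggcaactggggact
In this order, the windows lie on GRCm38.p6 at chr7:103771595-103771844, chr7:103791831-103792080, chr7:103813924-103814173, chr7:103853208-103853457, chr7:103894472-103894721, chr7:103906092-103906341 and chr7:102488308-102488557. Olfr65 is on the plus strand and the others are on the minus strand. Olfr69 and Olfr67, printed from the Hbb-bt flank of beta globin, each hold TATAAA, 31 and 28 bases before the start. Hbb-bt holds it 28 bases before its start. TATAAA was not found for Olfr68, which lies between Olfr69 and Olfr67, nor for Olfr630, Olfr628 and Olfr243 on the same side. It was found for Olfr629 and Olfr622 on that side and for Olfr640 on the Hbb-y side. Hbb-bt holds CCACCC 141 bases and Hbb-y 112 bases before the start. None of the motifs was found in the windows of Olfr64, Olfr65 and Olfr544. The window of Olfr631, next to Olfr65, holds CCCNNGGG and is not printed, although its model also begins before the start codon. The printed windows therefore do not show a difference in motifs between the sides. Over all 109 members the median GC content of the window was 36.4%, against 33.6% for the 829 other olfactory receptor windows and 55.6% for 16443 protein-coding genes. A CpG was lacking in 41.3% of member windows, 45.1% of those of other receptors and 7.02% of all genes. TATAAA was in 37.6% of member windows (12.6% of all), AGATAA in 27.5% (9.01%), TAATTA in 14.7% (4.40%), CCACCC in 5.50% (29.8%) and CCCNNGGG in 2.75% (13.6%). The last motif, which Ebf proteins of olfactory neurons bind, was in 2.77% of the windows of other receptors. TATAAA was in 39.6% of the windows of other receptors, AGATAA in 25.7%, TAATTA in 18.7% and CCACCC in 4.95%. These shares are therefore not particular to the members. AT-rich words were thus more frequent and GC-rich words less frequent in these AT-rich windows than over all genes.

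Which state each member had in each source was asked first. The receptor genes were LAD almost throughout. In mES cells 119 of the 126 (94.4%) were LAD, 2 were open and 5 were in no list. In forebrain 121 (96.0%) were LAD, 4 open and 1 in no list. The heart had the fewest in a LAD, 107 (84.9%), with 5 open and 14 in no list. Over all 20539 genes, LAD held 16.6%, 14.3% and 16.6% in mES cells, heart and forebrain, and open held 63.9%, 58.4% and 57.7%. Genes in no list made up 6.48%, 9.44% and 6.64% of all genes, so the heart share of members in no list (11.1%) was near that of all genes. It was above that of the 977 other olfactory receptor genes, of which 4.91% were in no list in heart. No member was KOD in any source, whereas 13.0%, 17.9% and 19% of all genes were. None of the 287 olfactory receptor genes of chromosome 2 was KOD either, and 7.57%, 8.70% and 8.90% of all 977 other receptor genes were. Taken over the 3 sources, 107 members were LAD in each (10.9% of all genes) and 2, Olfr543 and Olfr544, were open in each (44.0% of all genes). Every member that was LAD in heart was therefore also LAD in mES cells and in forebrain. LAD in all 3 sources held 84.9% of members, 85.8% of the other receptor genes of chromosome 7 and 92.7% of those of chromosome 2. It held 75.3% of all 977 other receptor genes. The 107 include Olfr78 (chr7:102740721-102759471), a receptor for short-chain fatty acids that is also expressed in the carotid body, and its neighbour and relative Olfr558.

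The remaining 19 members fell into few patterns. The most frequent, with 9 members, was LAD in mES cells and forebrain and no list in heart. Olfr66 and Olfr64 were LAD in mES cells and forebrain and open in heart. Olfr648, Olfr649 and Olfr691 were LAD in forebrain and in no list in the other sources. Olfr547 was LAD in mES cells, in no list in heart and open in forebrain. Olfr545 was in no list in mES cells and open in both tissues, and Olfr692 was in no list anywhere. Of the 126 genes, 124 lay wholly within 1 state in every source. With a median length of 957 bp and bins of 10 kb, most genes would do so whatever the order of states.

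Read along the chromosome, the forebrain map was the simplest. A single forebrain LAD of 2790 kb (chr7:102550001-105340000) covered 121 receptor genes and the whole beta-globin cluster. In mES cells the same stretch was split into LADs of 1640 kb (chr7:102530001-104170000, 86 members) and 990 kb (chr7:104340001-105330000, 33 members). The gap of 170 kb between them held Olfr648 and Olfr649. In heart there were 4 LADs, of 1000 kb with 52 members, 200 kb with 12, 190 kb with 10 and 1000 kb with 33. By 10 kb bins, LAD made up 90.7%, 82.4% and 96.2% of the run in mES cells, heart and forebrain, against 43.6%, 40.1% and 44.0% of chromosomes 1 to 19. Open bins made up 0.690%, 5.17% and 2.41% of the run.

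**Figure D1:**
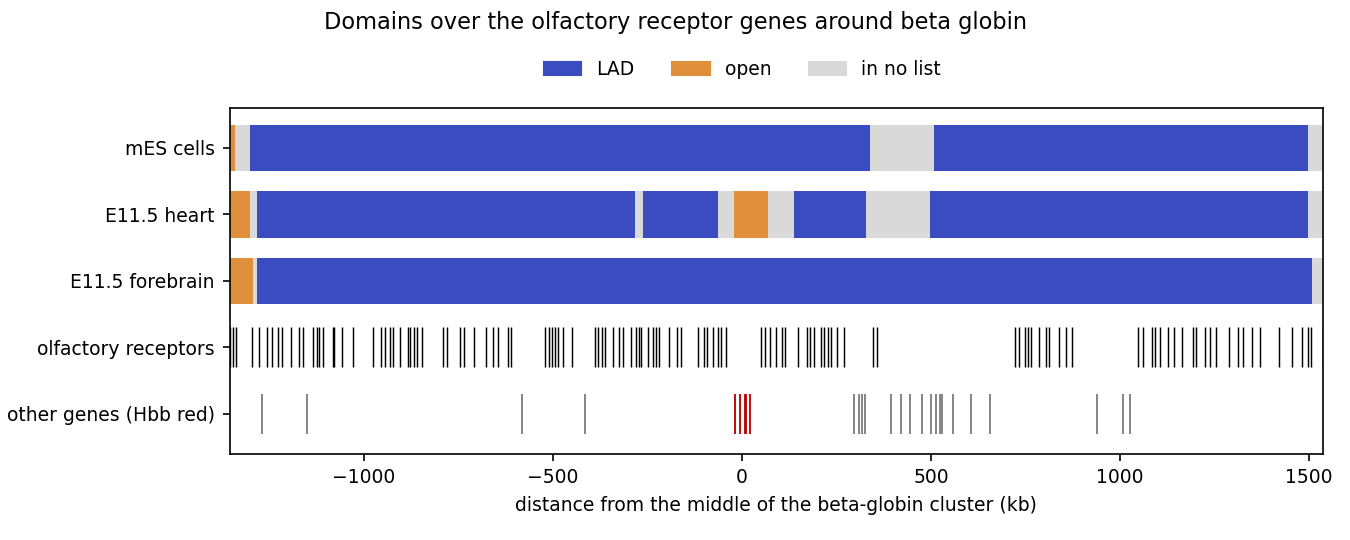
Domains along the 2.89 Mb run of olfactory receptor genes, as distance in kb from the middle of the beta-globin cluster. Rows are the 3 sources (blue LAD, orange open, grey in no list), and ticks mark the middle of each of the 126 receptor genes and of the other genes. The forebrain row holds 1 LAD of 2790 kb, and the heart row holds an open block of 90 kb over the beta-globin genes (red ticks).

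Beside the beta-globin genes the heart differed from both other sources. The cluster spans 40.7 kb (chr7:103812524-103853207) and holds Hbb-bt and Hbb-bs, the adult genes, Hbb-bh2, and Hbb-bh1 and Hbb-y, expressed in embryonic red cells. All 5 were LAD in mES cells and forebrain and open in heart. The heart open domain was 90 kb long (chr7:103810001-103900000) and was placed unevenly over the cluster. It reached 2.52 kb past Hbb-bt, on a scale where 1 bin is 10 kb, and 46.8 kb past Hbb-y. It took in Olfr66 (chr7:103881306-103882241) and Olfr64 (chr7:103892810-103894471), 28.1 and 39.6 kb from Hbb-y. Both were LAD over their whole body in mES cells and forebrain. Their open call in heart ended, and became a call of no list, when 20 kb was trimmed from every domain end or when domains under 100 kb were left out. The trim also takes Hbb-bt and Hbb-bs out of the open domain. Leaving out domains under 100 kb removes the domain whole, with the open calls of all 5 Hbb genes. Olfr66, Olfr64 and Olfr65 are named in RefSeq synonyms for their place 5′ of the beta-globin genes, and Olfr67, Olfr68 and Olfr69 for their place 3′ of them.

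The open domain was bordered in heart by stretches in no list, 40 kb long on the Hbb-bt side and 70 kb on the Hbb-y side. Olfr67 (chr7:103787212-103791830) and Olfr68 (chr7:103777396-103778343), 20.7 and 34.2 kb from Hbb-bt, lay in the first. Olfr67 was nearer to the cluster than Olfr66 was, but was not in the open domain. In the second lay Olfr65 (chr7:103906342-103907447), 53.1 kb from Hbb-y and 6.34 kb past the edge of the open domain, then Olfr631, Olfr632 and Olfr633, at 61.9, 84.2 and 93.4 kb. All 6 were LAD in mES cells and forebrain. The stretch outside any heart LAD was 200 kb long in all and held 8 receptor genes. On the Hbb-bt side the edge of the heart LAD cut Olfr69 (chr7:103767277-103771594, 40.9 kb away), with 63.1% of the gene in the LAD and the 36.9% that holds its start in no list. The LAD call of Olfr69 in heart was lost with the same 20 kb trim. The LAD went on over Olfr630 and Olfr629. On the Hbb-y side it began again at Olfr635 (chr7:103979176-103980141, 126 kb away) and Olfr638. In mES cells and forebrain all of these genes lay in 1 unbroken LAD, with no edge near beta globin. The promoter windows printed for Olfr69 and Olfr67 both lie in the stretch in no list on the Hbb-bt side, and those for Olfr64 and Olfr65 lie on either side of the edge of the open domain.

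**Figure D2:**
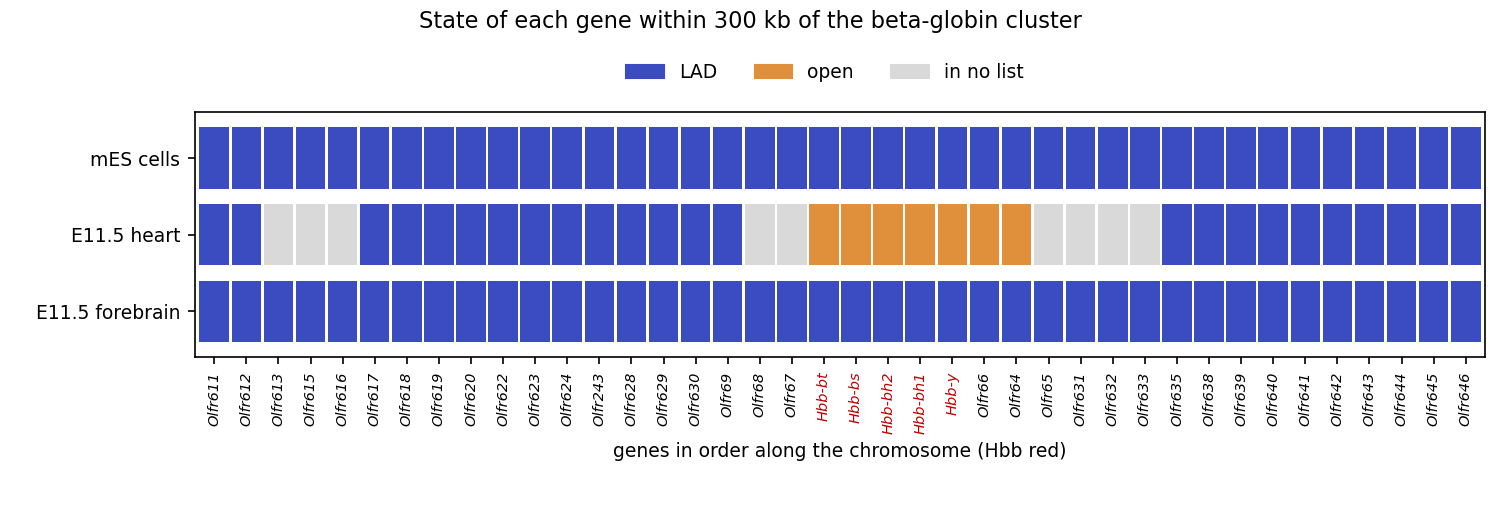
State of every olfactory receptor gene within 300 kb of the beta-globin cluster and of the 5 Hbb genes (red names), 1 column per gene in chromosome order and 1 row per source (blue LAD, orange open, grey in no list). In mES cells and forebrain every column is LAD, and in heart the Hbb genes with Olfr66 and Olfr64 are open and flanked by 2 and 4 genes in no list.

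By distance, the departure from LAD in heart was most frequent near the cluster and was not limited to it. Within 100 kb lay 13 members, of which 5 were LAD, 2 open and 6 in no list in heart, and 13 of 13 were LAD in mES cells and in forebrain. The sides differed: all 6 members on the Hbb-y side were outside a heart LAD, and 5 of the 7 on the Hbb-bt side were inside one. From 100 to 200 kb, 9 of 9 were LAD in every source. From 200 to 500 kb, 22 of 27 were LAD in heart, against 25 for mES cells and 27 for forebrain. From 500 to 1000 kb, 33 of 33 were LAD in every source. Beyond 1000 kb, 38 of 44 were LAD in heart and 39 in each of mES cells and forebrain. The Hbb-bt side held 73 members, up to 1335 kb away, and the Hbb-y side 53, up to 1515 kb away. Members of 1 domain share its call, so these counts are not independent observations.

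**Figure D3:**
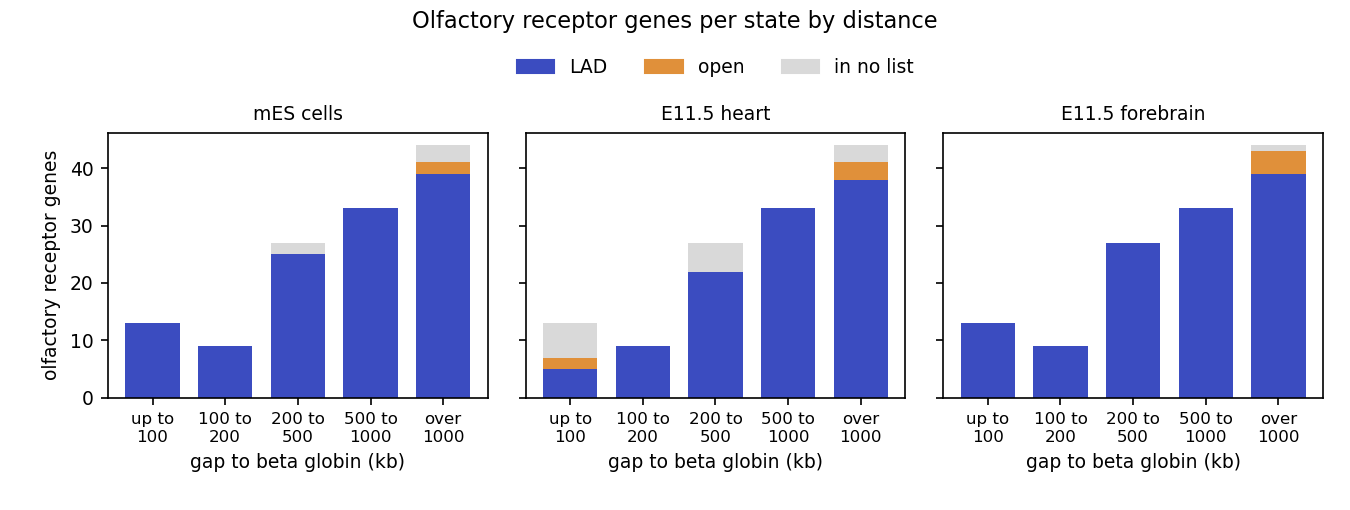
Number of olfactory receptor genes in each state by the gap to the beta-globin cluster in kb, for the 3 sources (blue LAD, orange open, grey in no list). In heart 5 of the 13 genes in the nearest class are LAD, and in the other 2 sources all 13 are.

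Away from beta globin, members left the heart LADs at 4 further places. The first was the edge of the run toward Rrm1, a subunit of ribonucleotide reductase, and Stim1, the calcium sensor of the endoplasmic reticulum. Olfr543 (chr7:102476773-102477902) and Olfr544 (chr7:102484114-102488307) were open in all 3 sources, in the same open domain as Rrm1 each time. Olfr544 is a receptor for azelaic acid that is also expressed outside the nose. The open domain ended earlier in mES cells than in the tissues. Its end lay at 102490000 in mES cells, before Olfr545, at 102530000 in heart, past Olfr545, and at 102540000 in forebrain, past Olfr547. Olfr547 (chr7:102534749-102535688) thus lay in the first bins of the mES LAD, between the heart domains, and in the last bins of the forebrain open domain. With the same trim Olfr543 and Olfr544 were in no list in mES cells, and Olfr547 was in no list in any source. From Olfr549 (chr7:102554286-102555236) on, all 3 maps were LAD.

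The second place was a heart gap of 20 kb that held Olfr613, Olfr615 and Olfr616, between Olfr612 and Olfr617 and 247 to 257 kb from Hbb-bt. The third was the stretch of 170 kb in no list with Olfr648 and Olfr649, which was of this length in both mES cells and heart and shifted by 1 bin between them. It was shared with Trim6, Trim34a, Trim5 and Trim12a, of a family of antiviral proteins, and in mES cells with Trim34b. It lies between Olfr646 and Olfr651, in the part of the run where receptor genes are rarest, with 363 kb between Olfr649 and Olfr651. The median gap to the next member was 12.4 kb. The fourth was the edge toward Fam160a2 and Gm5901. There LAD ended at 105330000 in mES cells and heart, within Olfr690, and at 105340000 in forebrain, so that Olfr691 was LAD in forebrain and in no list elsewhere. With 20 kb trimmed from every domain end, Olfr690 and Olfr691 were in no list in any source. Of the 19 members outside a heart LAD, 8 were around beta globin, 4 and 2 at the edges of the run, 3 in the small gap and 2 in the Trim stretch.

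The sources were then compared in pairs. Among members listed in both mES cells and heart, 2 of 111 differed in state, against 19.6% of all genes listed in both. Between mES cells and forebrain 1 of 121 differed (22.6% of all genes), and between forebrain and heart 2 of 112 did (15.2% of all genes). The shares of all genes include changes between open and KOD, and no member was KOD in any source. They are thus no measure of how often a LAD gene changes state. Most departures were into no list. Of the members that were LAD in mES cells, 12 of 119 (10.1%) were not LAD in heart, 10 of them in no list, against 29.5% of all genes. From mES cells to forebrain it was 1 of 119 (0.840%), Olfr547, against 19.6% of all genes. Of the members that were LAD in forebrain, 14 of 121 (11.6%) were not LAD in heart, 12 of them in no list, against 27.2% of all genes. Each source enters 2 of these comparisons, so they are not independent. All genes are a broad background for receptor genes. Beside other receptor genes, the members did not keep their LAD state in heart more often (values below). For the 977 other olfactory receptor genes the LAD share was 83.5%, 83.1% and 81.6% in mES cells, heart and forebrain. It was thus nearly the same in mES cells and heart, whereas among members it was 94.4% in mES cells and 84.9% in heart. These are net shares, and genes that leave LAD can be offset by genes that enter it. Of the 977, 25 were in no list in heart and LAD in the other sources, and 17 were in no list in mES cells and LAD in both tissues. No member was LAD in heart without being LAD in mES cells.

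Members that were LAD in both mES cells and forebrain numbered 118. In heart 2 of them (1.69%) were open, against 3.95% of all genes LAD in both, and 9 (7.63%) were in no list, against 13.1%. Among the 977 other olfactory receptor genes 770 were LAD in both, of which 1 was open in heart, Olfr1506 on chromosome 2 (chr2:90217395-90224471), 8 were KOD and 25 were in no list. By bins, 3.45% of the run that was LAD in both was open in heart and 5.36% was in no list, against 1.93% and 9.29% over chromosomes 1 to 19. The share of open bins was thus above that of the genome and the share of open genes below that of all genes.

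The heart open domain at beta globin was set beside all others of its kind. Of the 4183 open domains of heart, 187 lay wholly in bins that were LAD in both mES cells and forebrain, with a median length of 20.0 kb and a longest of 1040 kb. The 90 kb domain over beta globin was exceeded in length by 19 of them. A whole protein-coding gene lay in 15, and the beta-globin domain held the most, 7. It was the one of the 187 with a whole olfactory receptor gene inside. The corresponding domains of mES cells (69 open there and LAD in both tissues) and of forebrain (33) held 0 and 0 whole receptor genes.

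**Figure D4:**
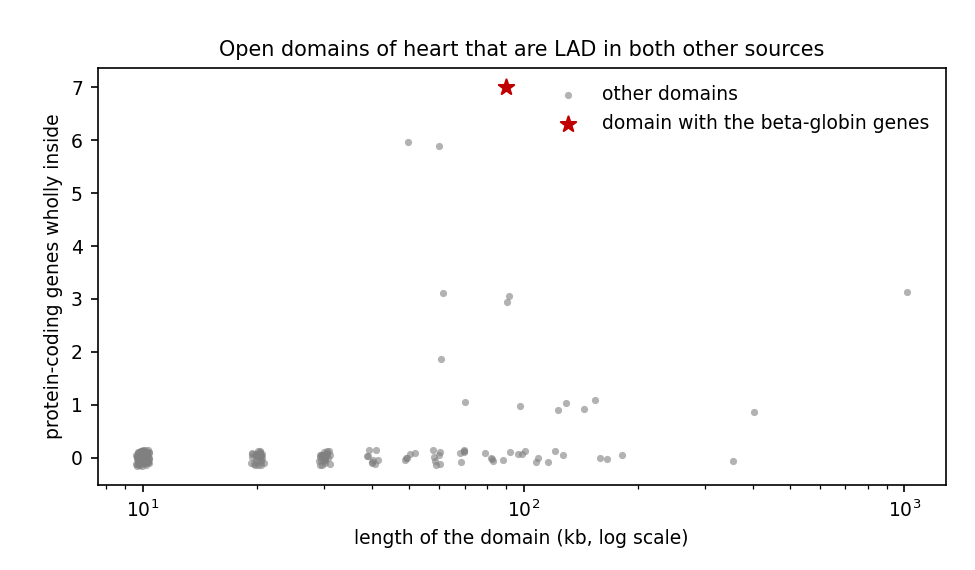
The 187 open domains of heart that lie wholly in LADs of mES cells and forebrain, by length (kb, log scale) and by the number of protein-coding genes wholly inside. Points are shifted slightly so that they can be told apart, and the star, at 90 kb and 7 genes, is the domain with the 5 Hbb genes, Olfr66 and Olfr64.

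Against other olfactory receptor loci the share of LAD genes was not extreme in any source. Clusters were taken as 20 or more receptor genes with gaps below 1 Mb, which gave 15. In heart 4 of the other 14 had a lower share of LAD genes than the 84.9% here, in mES cells 5 and in forebrain 7. The neighbouring cluster of chromosome 7 (chr7:106677534-108894405), with 67 genes, was LAD for 95.5%, 98.5% and 97.0% of its genes in mES cells, heart and forebrain. The largest cluster, with 222 genes on chromosome 2 (chr2:85330967-90401674), was LAD for 97.7%, 95.9% and 99.5%. In the first the heart share was the highest of the 3 sources and in the second the lowest, as it was here. Each cluster has 1 value per source, so these differences were not tested. The cluster on chromosome 11 with 30 genes (chr11:73350859-74365609) also differed between sources, with 96.7%, 70.0% and 40.0%, lowest in forebrain.

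**Figure D5:**
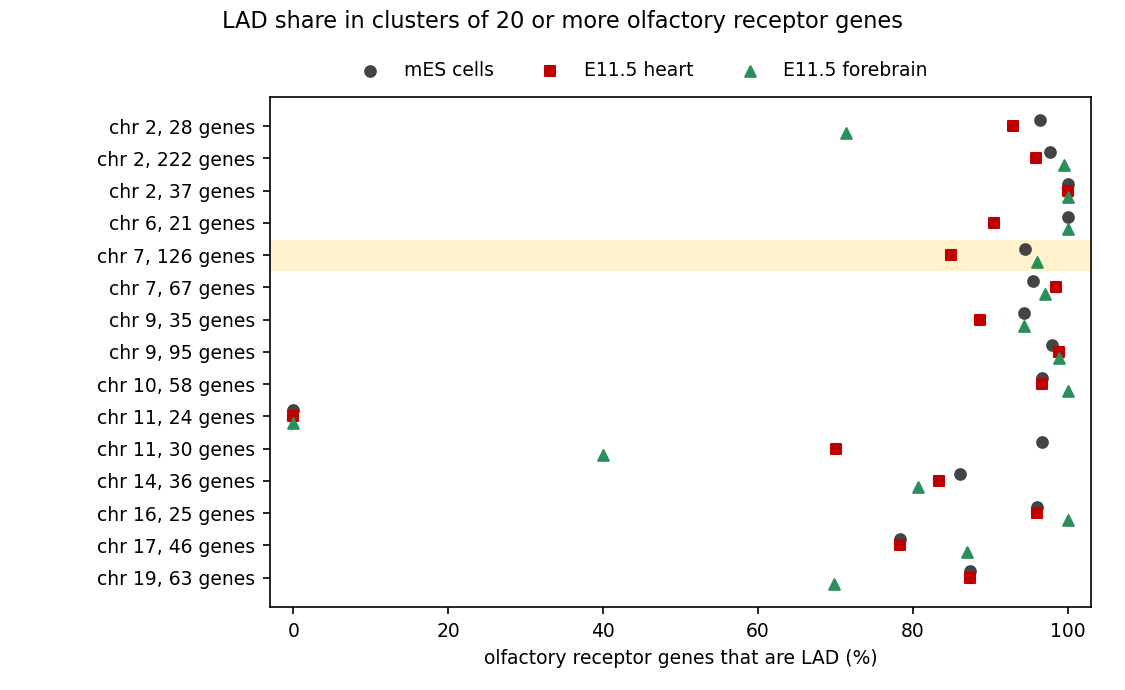
Percentage of olfactory receptor genes that are LAD in each of 15 clusters with 20 or more such genes, labelled by chromosome and number of genes, with circles for mES cells, squares for heart and triangles for forebrain. The shaded row is the cluster around beta globin, where heart (84.9%) lies below mES cells (94.4%) and forebrain (96.0%).

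The 27 other protein-coding genes inside the run took the state of their surroundings. All 27 were LAD in forebrain. In mES cells 22 were LAD and 5, all Trim genes, in no list. In heart 18 were LAD, the 5 Hbb genes open and 4 Trim genes in no list. The 5 Usp17l genes, which encode deubiquitinases, were LAD in all 3 sources. Outside the run but within the window lay 32 genes, of which 31 were open in forebrain and 1 was LAD. In heart 19 were open and 13 in no list, and in mES cells 13 and 18, with 1 LAD. The LAD gene was Gm4070 in both, and 11.4% of Stim1 was also in a LAD in mES cells. By their edges given above, the LADs over the run ended close to the outermost receptor genes on both flanks in every source. Further LAD bins thus lay in the window beyond them.

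Genes that act on olfactory receptors elsewhere in the genome were read from the same lists. A list of 28 genes for receptor choice, heterochromatin and odorant signalling held none that was LAD in any source, against 16.6%, 14.3% and 16.6% of all genes in mES cells, heart and forebrain. In mES cells 22 were open, 5 KOD and 1 in no list, in heart 18, 9 and 1, and in forebrain 17, 11 and 0. The open share of the list was thus 78.6%, 64.3% and 60.7%, near that of all genes in heart (58.4%) and forebrain (57.7%), and that of all genes in mES cells was 63.9%. Open in all 3 sources were Adcy3, Gnal and Cngb1 of the odorant signalling cascade, Ehmt1 and Ehmt2, enzymes that dimethylate H3K9, and Ebf1. So were Omp, Ric8b, Bcl11b, Lmna, Lmnb1 and Lmnb2. Ano2, Ebf2 and Ebf4 were KOD in all 3 sources. Lhx2, which with Ebf factors and Ldb1 acts at receptor enhancers, was open in mES cells and heart and KOD in forebrain. Lbr, a receptor of the inner nuclear membrane that tethers heterochromatin, was open in mES cells and forebrain and KOD in heart. Cnga4, a subunit of the olfactory ion channel that lies on the flank of this run, was open in forebrain and in no list in the other sources.

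Markers of the cell types that the samples could hold were read from the same lists. Of 14 erythroid markers found, 11 were open in heart, against 7 for mES cells and 5 for forebrain, and 4 of them are Hbb genes of this locus. Outside the locus 7 of 10 were open in heart, 7 of 10 also in mES cells and 5 of 10 in forebrain. They include the alpha-globin genes Hba-x, Hba-a1 and Hba-a2, which were open in all 3 sources. The part of blood cells in the heart state of the locus was not tested. Of 8 heart markers 5 were open in heart and 1 in each of the other sources, with Myh6, Actc1, Tnnt2 and Ttn open in heart and not in the other sources. Forebrain markers were open for 4 of 8 in forebrain, 6 of 8 in heart and 5 of 8 in mES cells, and Pax6 and Tbr1 were open in both tissues and in no list in mES cells. Of 9 mES markers 7 were open in mES cells, against 4 for heart and 5 for forebrain. Of 5 endothelial markers 2, 2 and 1 were open in mES cells, heart and forebrain. An open call thus did not mark 1 cell type, and the labels of the sources could be checked only in part from the lists.

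The state was also read by receptor family. The 121 members classed by MOR number carry 41 MOR families, and neighbours often share one. MOR1 holds Olfr66, Olfr64 and Olfr65 on the Hbb-y side and Olfr623 on the Hbb-bt side, 247 kb from end to end, and Olfr623 alone of these 4 was LAD in all 3 sources. MOR42 holds Olfr543, Olfr544 and Olfr545, the edge genes toward Rrm1, none of which was LAD in any source. MOR31 is spread over 2803 kb with 11 members, of which 6 were LAD in all 3 sources, and includes Olfr67, Olfr547, Olfr648, Olfr649 and Olfr691, each in a gap or beside an edge. MOR32, also with 11 members, was LAD throughout, as were the 8 members each of MOR14 and MOR40. The gene models are short, with a median length of 957 bp, and 104 of 126 lengths are multiples of 3, as for models that hold the coding sequence without UTRs. On the strands 55 members lie on plus and 54 on minus among the 109 with an entry.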

How the data were processed

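H3K9me2, Lamin B1 and IgG CUT&RUN libraries came from mES cells, heart and forebrain. The genome build was mm10, and the tools named were Bowtie2 2.5.0, cutadapt 4.2, Trim Galore, deepTools and Picard, per the submitters' processing notes. The domain caller, its thresholds and its use of IgG are not given in the sources used here. A looser threshold or a deeper library can lengthen a domain, and reads of near-identical receptor genes can be misplaced or lost. Their part in the bins in no list was not tested.

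The 9 deposited lists give chromosome, start and end of domains in whole 10 kb bins, with no score, count or other measured unit, and pool replicates. Depth and its precision are therefore unknown, and no test or interval was computed. The lists were painted on chromosomes 1 to 19 with Python 3.11.15, numpy 2.4.6 and pandas 2.3.3, and figures were drawn with matplotlib 3.10.9. The painting was tested on simulated domains. A gene has the state that covers most of its body (RefSeq, GRCm38.p6). The annotation had 20665 protein-coding entries on these chromosomes, of which 126 were left out because their midpoint lay outside the listed span of the chromosome. Where a gene had several promoter windows, the one nearest its annotated start was used. Distance is the gap to the nearest end of the cluster from Hbb-bt to Hbb-y.

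Named are the 5 members nearest to the cluster on each side, members on both sides of each change of state along the run, members that were open in any source, the Hbb genes and the first 2 other genes on each flank. Further genes come from the lists for receptor choice and cell type markers, or were named as exceptions to a count after their values were seen. The planned naming of pairs by protein identity was not run, since no protein sequences were used here. The members, gene lists and tests were chosen with earlier results of these data known. Alternatives were the gene midpoint, the gene start, trimmed or omitted domains and subsets of members.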

Additional observations from a re-analysis of the deposited data

How the results depend on the processing

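Of 135 comparisons of a share under another setting with the reported share, 112 stayed within 1.5 times of it and 23 did not. The gene midpoint, the gene start by strand, genes wholly in 1 state, class I members by MOR number (chosen after seeing the data) and the whole window moved none beyond that. Since the genes are short beside a bin, the midpoint, start and whole-body settings could change few calls. With 20 kb trimmed from every domain end, the open share of members was 0% in mES cells and 2.38% in heart, and the share in no list was 7.94%, 19% and 3.97% in mES cells, heart and forebrain. The share of members with another state was then 0% in each pair of sources, and within 100 kb of beta globin 23.1% were LAD in heart. With domains under 100 kb left out, the open share was 0% in mES cells and 2.38% in heart, and 0% differed in state between heart and either mES cells or forebrain. Both settings remove the heart open domain from Olfr66 and Olfr64 by construction. The first also removes it from Hbb-bt and Hbb-bs, and the second from all 5 Hbb genes. Among the members within 1 Mb of beta globin, open took 0%, 2.44% and 0% in mES cells, heart and forebrain, and 2.44% and 0% were in no list in mES cells and forebrain. Among the members listed in all 3 sources, 0%, 0% and 0% were by definition in no list in mES cells, heart and forebrain, and 1.80% were open in forebrain. Among members more than 100 kb away, also chosen after seeing the data, 7.08% were in no list in heart.

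The planned restriction to class I by current symbol was not run, since the annotation used carries the older symbols. No paired analysis was possible because the lists pool the replicates and carry no replicate number, and for the same reason leaving out each replicate was not run. With no score per domain, neither the depth behind an edge nor its error is known, and edges that differ by 1 or 2 bins between sources cannot be told from noise in the calls.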
